A study of Mus musculus with 18 samples.

Results

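Growth factor receptor kinase genes with known roles in fibroblasts were followed in mouse NIH/3T3 cells with and without exportin 4 (XPO4). The 10 genes, out of 55401 in the count files, were chosen by name: Pdgfra, Pdgfrb, Fgfr1, Fgfr2, Egfr, Igf1r, Insr, Met, Axl and Ddr2. The circRNAs lying inside these genes were followed with them, which gave 59 of the 16171 circRNAs listed in any circRNA library. NIH/3T3 is an embryonic mouse fibroblast line, and XPO4 is a nuclear export receptor. The knockout (KO) cells were made by CRISPR-Cas9 with the same edit on both Xpo4 copies, and wild-type (WT) cells were the control, both grown in DMEM with serum per the study's methods. No other KO line was analysed here, so an effect of the line and of the knockout cannot be told apart. mRNA was sequenced in 3 WT and 3 KO libraries. CircRNA was sequenced after RNase R, an enzyme that digests linear RNA, in 2 WT and 2 KO libraries each of whole cells, cytoplasm and nucleus. Nothing in the labels says that replicates came from separate cultures, so p-values measure only the spread between these libraries, which may be technical.

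Receptor tyrosine kinases are membrane proteins that bind a growth factor outside the cell and phosphorylate themselves and their partners inside it. Adaptors such as Grb2, Shc1 and Frs2 then dock on the receptor and pass the signal to the Ras-MAPK and PI3K pathways, while Sprouty proteins, dual specificity phosphatases and ubiquitin ligases dampen it. In fibroblasts the PDGF and FGF receptors are known for driving proliferation and migration, the IGF1 and insulin receptors for growth and metabolism, and DDR2 for sensing fibrillar collagen. A circRNA is a closed loop formed when the end of an exon is joined back to the start of the same or an earlier exon, and a junction read is a read that spans that join.

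Total gene counts ran from 16974062 to 22057323 per mRNA library. Junction reads ran from 50341 to 58165 in whole cells, from 50629 to 81941 in cytoplasm and only from 2189 to 4383 in nuclei, so nuclear values rest on few reads. The mRNA column headings name the other genotype than the sample titles, and the titles were followed here. Xpo4 mRNA did not settle the labels: its counts were 657, 614 and 685 in the libraries titled WT and 712, 504 and 687 in those titled KO, with overlapping groups (log2 fold change 0.18 ± 0.11 SE, edgeR adjusted p = 0.193). Every direction below therefore rests on the titles. KO mRNA replicate 2 stood apart from the other KO libraries, with a chi-square per gene of 9.74 and 11.3 against them, where no other pair of the same genotype exceeded 4.65. All 8 fibroblast markers were detected, with summed levels of 2593 to 2781 FPKM (counts scaled to exon length and to the library's total), and the 6 blood markers summed to at most 0.68 FPKM. Among the blood markers Ptprc had 108, 103 and 105 counts in WT against 32, 26 and 21 in KO. Hba-a1 went the other way, with 0 counts in each WT library against 8, 7 and 6 in KO. Of the 4 adipocyte markers only Fabp4 passed the filter on low counts, at 0.112 to 0.212 FPKM in WT and 0.945 to 1.01 in KO, and the other 3 had at most 4 counts in any library.

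The sequences at the joins of 5 circRNAs are given first, because each is what a junction read has to contain: the most-read circle of each of the 4 genes with the most junction reads, and the only circle of Egfr, the gene whose mRNA differed most. All are read 5′ to 3′ on the gene's strand from GRCm38.p6, with 15 bases from each side of the join and the 2 bases on each side of it in capitals. Exons are numbered in 1 GENCODE transcript that holds both ends of the circle, chosen for each circle, so numbers can differ between circles of a gene. The exons of the most-read Fgfr2 circle, numbered 3 and 4 below, are exons 5 and 6 in the transcript used for several other Fgfr2 circles. The Fgfr1 join closes exon 3 on itself at chr8:25555508-25555774, and the Fgfr2 join runs from the end of exon 4 to the start of exon 3 at chr7:130218998-130228792. The Insr and Igf1r joins each close exon 2 on itself, at chr8:3258383-3258934 and chr7:68003810-68004355. The Egfr join links exon 7 back to exon 6 at chr11:16868108-16869360.
Fgfr1: ccgtcaatgtctcAGCTcagccctggggag
Fgfr2: acctcgatgtcgtTGGAgcaccgtactgga
Insr: gtcattgtcagaaAGTGtgccctggtatgg
Igf1r: atcgctgccagaaAATCtgtgggcccggca
Egfr: tgaagaagtgcccCCTGaccaaaatcatct

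The 10 genes spanned a wide range of mRNA level. Axl, a receptor of the TAM family that binds the vitamin K-dependent ligand Gas6, was the highest at 137 ± 2.22 FPKM in WT and 180 ± 8.84 in KO (mean ± SD, n = 3 each). Egfr, the epidermal growth factor receptor, was the lowest at 2.14 ± 0.066 FPKM in WT and 0.729 ± 0.111 in KO. The ratio of the highest to the lowest mean was 64.1 in WT and 247 in KO. In WT the order was Axl, Ddr2, Pdgfrb, Fgfr1, Pdgfra, Fgfr2, Met, Igf1r, Insr and Egfr. Of the 9 neighbouring pairs in that order, 6 had ranges that did not overlap over 3 libraries. The pairs that could not be separated were Ddr2 and Pdgfrb (53.8 ± 2.95 and 53.0 ± 1.24 FPKM), Fgfr1 and Pdgfra (42.1 ± 1.51 and 41.7 ± 1.09 FPKM), and Met and Igf1r (10.1 ± 0.618 and 9.36 ± 0.377 FPKM). In KO the order changed in its upper part, where Pdgfrb and Fgfr1 (58.4 ± 2.55 and 57.6 ± 2.71 FPKM) stood above Ddr2 (45.4 ± 7.63 FPKM) and Pdgfra (36.2 ± 4.11 FPKM).

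**Figure D1:**
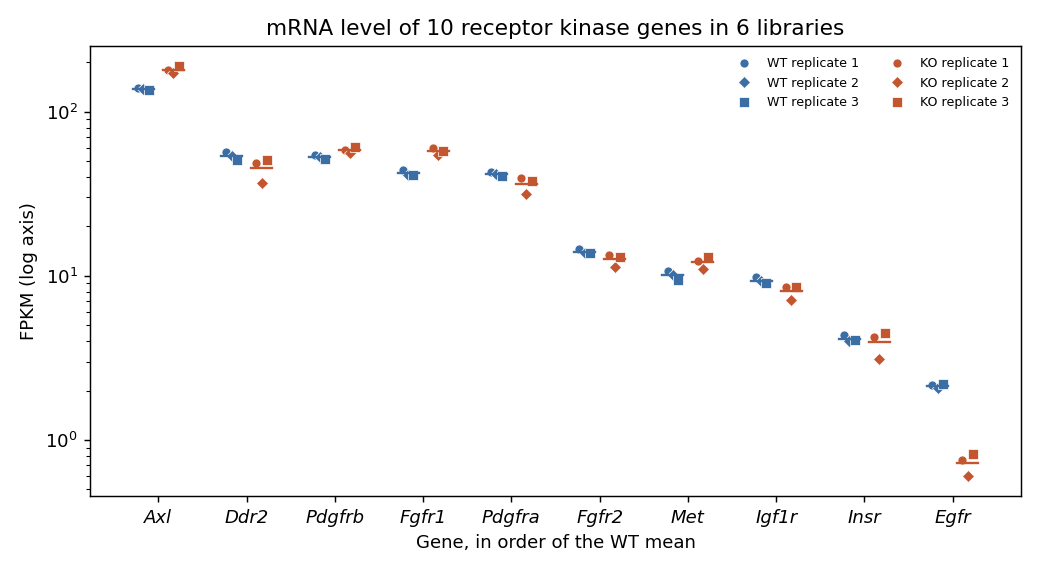
mRNA level in FPKM (log axis) of the 10 receptor kinase genes in each of 3 WT and 3 KO libraries, with a line at each mean and a symbol for each replicate number. Axl is highest and Egfr lowest in both genotypes, and KO replicate 2 is the lowest KO library for each of the 10 genes.

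KO was then compared with WT by edgeR's quasi-likelihood test across all genes, with Benjamini-Hochberg adjustment. Of the 10 receptor genes, 8 passed at an adjusted p under 0.05, 4 of them higher and 4 lower in KO. Across all 14688 genes tested 48.7% passed, with 25.1% higher and 23.6% lower, so a call was common in this comparison. The median log2 fold change of the 10 genes was -0.12, against -0.0029 over all genes.

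Egfr showed the largest difference. Its counts were 488, 457 and 547 in WT against 153, 123 and 158 in KO, so every KO library lay far below every WT library. The log2 fold change was -1.56 ± 0.11 (SE), a KO level 0.34 times that of WT (adjusted p = 8.73e-08). Of 6 epithelial markers, 1 passed the filter on low counts and moved with it: Krt14, a keratin, had 89, 91 and 112 counts in WT against 18, 9 and 8 in KO. The defining markers Epcam and Krt18 were at 0 in every library and the other 3 had at most 7 counts. The part of Krt14 in the result was not tested, and in bulk RNA fewer expressing cells and less RNA per cell cannot be told apart. The 3 genes whose pattern over the 6 libraries was most like that of Egfr, among 11691 compared, were St3gal1, a sialyltransferase (r = 0.999), Pkn3, a kinase related to protein kinase C (r = 0.999), and Ptprj, a receptor-type phosphatase (r = 0.998). With 2 groups of 3 libraries these correlations mainly describe the step between the genotypes.

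Fgfr1 and Axl rose. Fgfr1, the main FGF receptor of mesenchymal cells, had counts of 8602, 7942 and 8970 in WT against 10590, 9695 and 9685 in KO, with no overlap (log2 fold change 0.45 ± 0.05, adjusted p = 1.43e-05). Axl had 13977, 13443 and 15016 in WT against 16157, 15411 and 16105 in KO, also without overlap (0.39 ± 0.05, adjusted p = 3.85e-05). Met, the hepatocyte growth factor receptor, had nearly the same raw counts in both genotypes, 1628, 1527 and 1598 in WT against 1674, 1515 and 1695 in KO. The KO libraries held fewer counts in total, and scaled for this the level of Met was higher in KO (0.26 ± 0.07, adjusted p = 0.00729). Egfr, Fgfr1, Axl and Met passed under all 11 alternatives tried.

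The other calls were smaller and depended on single libraries: of the 11 alternatives, Igf1r passed in 9, Pdgfra in 8, Ddr2 in 6 and Pdgfrb in 4. Pdgfrb, which encodes PDGF receptor beta, was higher in KO by 0.14 ± 0.05 on the log2 scale (adjusted p = 0.0460). Lower in KO were Ddr2 (-0.25 ± 0.09, adjusted p = 0.0438), Igf1r (-0.21 ± 0.07, adjusted p = 0.0226) and Pdgfra (-0.21 ± 0.07, adjusted p = 0.0267). KO replicate 2 held the lowest Ddr2 value: the counts were 10461, 9706 and 10399 in WT against 8009, 6100 and 8025 in KO. As FPKM the groups overlapped, from 50.9 for the lowest WT library to 51.0 for the highest KO library. Without that library 8 genes still passed, but the log2 fold change shrank to -0.11 for Ddr2, -0.13 for Igf1r and -0.12 for Pdgfra. Without WT replicate 1 or without WT replicate 2 only 4 genes passed, and without WT replicate 3 only 5.

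Fgfr2 and Insr did not pass. Fgfr2 had counts of 3000, 2791 and 3119 in WT against 2469, 2098 and 2285 in KO (-0.16 ± 0.06, adjusted p = 0.0583). Insr, the insulin receptor, had 1189, 1081 and 1227 in WT against 1039, 772 and 1041 in KO (-0.07 ± 0.10, adjusted p = 0.576). Of the 11 alternatives, Fgfr2 passed in 2, with the replicate number as a block (adjusted p = 0.0441) and without KO replicate 1 (adjusted p = 0.0476), and Insr in none. Missing the threshold does not show that levels were equal. Exon bases shared with an overlapping gene made up 6.50% of Pdgfra and 3.04% of Fgfr2, and the counting was not stranded. Reads from those bases may have been lost or assigned to the wrong gene, which was not tested.

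**Figure D2:**
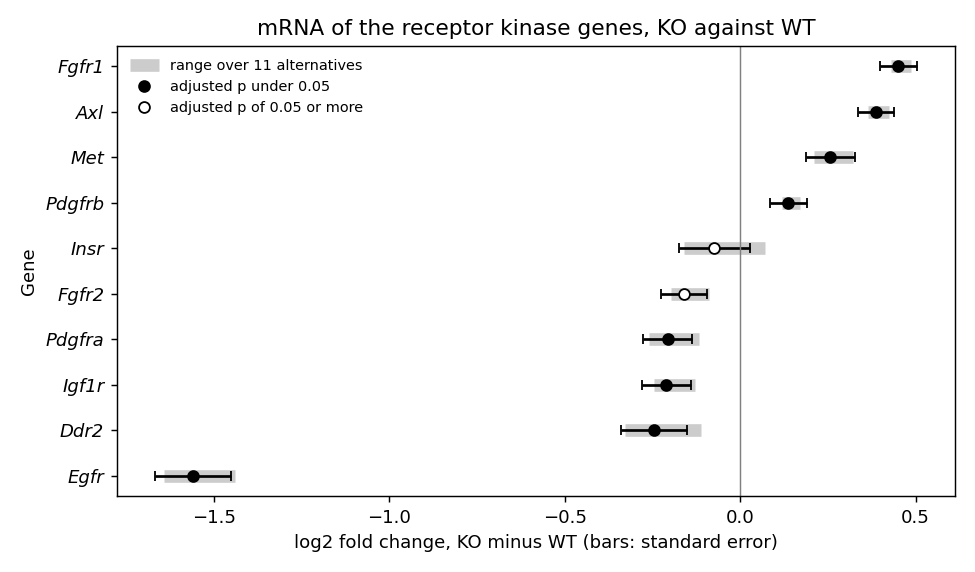
log2 fold change of mRNA, KO minus WT, for each receptor kinase gene, with its standard error as a bar and the range over 11 alternatives as a grey band. Egfr lies far to the left at -1.56, Fgfr1 and Axl to the right at 0.45 and 0.39, and the band of Insr crosses 0.

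The ligands of these receptors were detected in part: 17 of 26 passed the filter on low counts. Of the 17, 14 (82.4%) passed the test, 9 higher and 5 lower in KO (median log2 fold change 0.16). Over all genes tested the share was 48.7%, with 25.1% higher and 23.6% lower. The 17 included the collagen genes Col1a1, Col1a2 and Col3a1, which also served as fibroblast markers and are named after their values were seen. Col1a2 was higher in KO (0.16 ± 0.05, adjusted p = 0.0240) and Col1a1 lower (-0.34 ± 0.06, adjusted p = 0.000676). Col3a1 did not pass (-0.02 ± 0.05, adjusted p = 0.728). Fgf2, the basic fibroblast growth factor, went from 0.561 ± 0.052 to 2.18 ± 0.068 FPKM (log2 fold change 1.96 ± 0.12, adjusted p = 3.21e-08), and Fgf10 from 5.97 ± 0.098 to 11.5 ± 0.562 FPKM (0.94 ± 0.07, adjusted p = 8.55e-08). Fgf7, the FGF ligand with the highest level here and named after its values were seen, was lower in KO, at 56.7 ± 1.02 against 51.1 ± 0.739 FPKM (-0.15 ± 0.05, adjusted p = 0.0265). Igf1, the ligand of the IGF1 receptor, went from 0.730 ± 0.076 to 2.79 ± 0.138 FPKM (1.93 ± 0.10, adjusted p = 4.90e-09). Pdgfa, which binds PDGF receptor alpha, rose by 0.65 ± 0.09 (adjusted p = 3.71e-05). Hgf, the ligand of Met, fell from 6.23 ± 0.412 to 2.95 ± 0.443 FPKM (-1.08 ± 0.10, adjusted p = 9.86e-07). Pros1, listed as a ligand of the TAM family and not tested here for acting on Axl, fell from 31.1 ± 1.35 to 13.7 ± 0.396 FPKM (-1.19 ± 0.06, adjusted p = 2.68e-09). Gas6, the ligand of Axl and named after its values were seen, went the other way. It rose from 27.1 ± 0.797 to 34.5 ± 2.01 FPKM (0.35 ± 0.06, adjusted p = 0.000363).

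Of co-receptors and binding proteins, 10 of 13 tested passed, 7 higher and 3 lower in KO by the titles (median 0.53). That is 76.9%, against 48.7% of all genes tested. Fgfrl1, an FGF receptor relative that lacks the kinase domain, rose from 14.9 ± 0.921 to 33.9 ± 1.10 FPKM (1.19 ± 0.06, adjusted p = 7.20e-09). The 2 syndecans named by the rule, which carry heparan sulphate chains, went opposite ways: Sdc2 rose by 0.78 ± 0.05 (adjusted p = 6.53e-08) and Sdc1 changed by -0.77 ± 0.06 (adjusted p = 2.68e-07). Sdc4, another syndecan of the list and named after its values were seen, was lower in KO (-0.28 ± 0.05, adjusted p = 0.000777). Nrp2, Igf2r and Gpc1 rose by 0.84, 0.82 and 0.53.

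Among feedback inhibitors and genes of receptor turnover, 16 of 25 tested passed, 11 higher and 5 lower (median 0.08). Their share was 64%, against 48.7% of all genes tested. The inhibitors of the Ras-MAPK arm that were named rose: Spry2, a Sprouty protein, from 13.0 ± 0.495 to 33.1 ± 0.943 FPKM (1.35 ± 0.06, adjusted p = 2.43e-09), and Dusp6, an ERK phosphatase, from 10.1 ± 0.717 to 22.1 ± 1.14 FPKM (1.13 ± 0.07, adjusted p = 3.39e-08). Errfi1, an inhibitor that binds the EGF receptor itself, rose from 8.80 ± 0.551 to 24.3 ± 1.08 FPKM (1.46 ± 0.07, adjusted p = 1.45e-09). Lrig3 rose by 1.04 ± 0.09 (adjusted p = 6.63e-07). Socs3, a suppressor of cytokine signalling, fell from 42.1 ± 1.13 to 16.2 ± 0.352 FPKM (-1.38 ± 0.06, adjusted p = 5.12e-10), and Ptprj fell to 0.135 ± 0.036 from 0.725 ± 0.016 FPKM (-2.43 ± 0.21, adjusted p = 8.87e-07).

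Of the other receptor tyrosine kinases, 21 of 42 were tested and 12 passed, 6 in each direction (median -0.04). Their share of 57.1% was near the 48.7% of all genes tested. Ddr1, the epithelial relative of Ddr2, fell from 29.7 ± 2.59 to 20.0 ± 0.733 FPKM (-0.57 ± 0.07, adjusted p = 1.19e-05), and Mertk, a relative of Axl, rose from 0.537 ± 0.107 to 1.46 ± 0.096 FPKM (1.45 ± 0.19, adjusted p = 2.78e-05). The ephrin receptors moved both ways, with Epha7 at 2.97 ± 0.20 and Epha2 at 0.77 ± 0.06 against Epha4 at -0.89 ± 0.08, and the neurotrophin receptor Ntrk3 fell by 1.85. Adaptors had the lowest share of calls, 11 of 26, with 7 higher and 4 lower (median 0.05). At 42.3% the adaptors were near the 48.7% of all genes tested. Their named members moved little, from -0.34 for Grb10 to 0.46 for Grb14, except Vav3, a guanine nucleotide exchange factor of low level, which rose by 2.09 ± 0.23 (adjusted p = 6.66e-06).

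**Figure D3:**
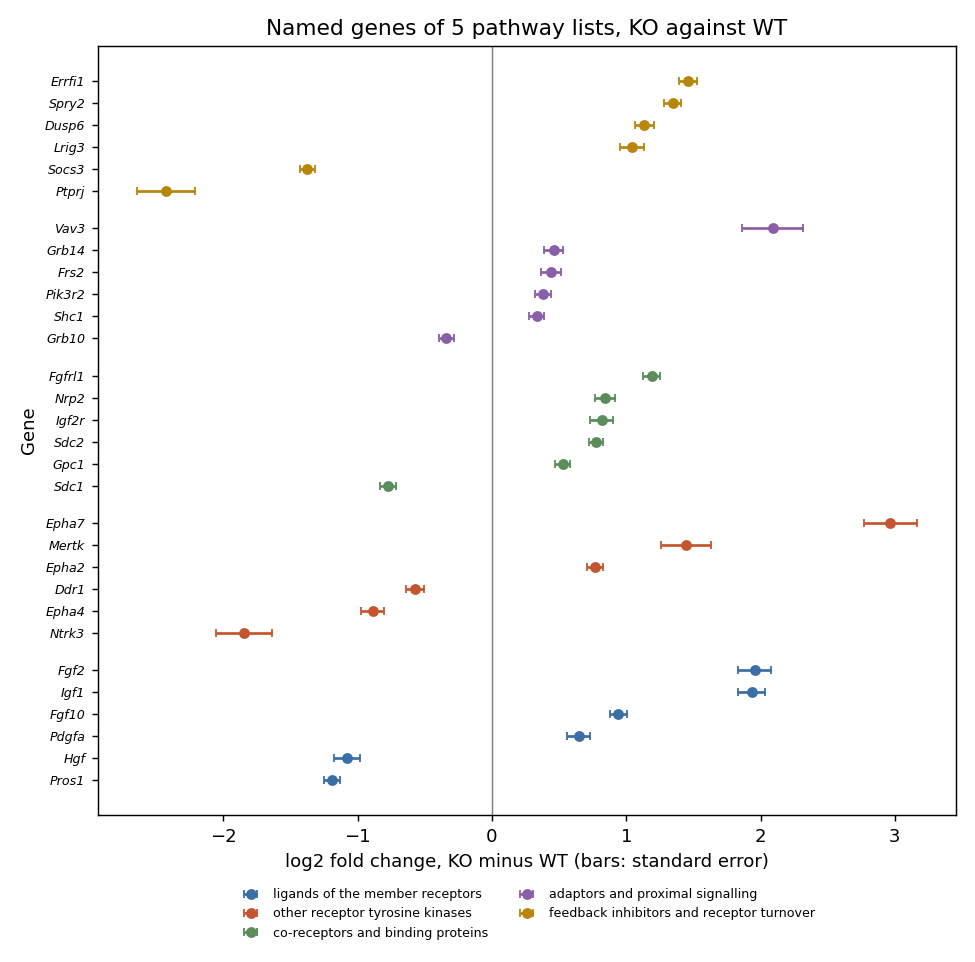
log2 fold change of mRNA, KO minus WT, with its standard error, for up to 6 genes of each of 5 pathway lists, named as those with the smallest adjusted p among the called. The named co-receptors lie to the right of 0 except Sdc1 at -0.77, and the named feedback genes lie to the right except Socs3 at -1.38 and Ptprj at -2.43.

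CircRNAs were listed inside 9 of the 10 genes and none inside Pdgfrb. Of the 59, 58 had both ends on annotated exon edges, and all 58 were flanked by AG and GT on the strand of the gene, the bases that splicing uses. Their spliced length, with introns removed, was 261 to 1657 bases with a median of 582.5. Single exons formed 6 of them and held 46.3% of the 3415 junction reads. Fgfr2 had the most circRNAs, 16, and the most reads, 1017, followed by Fgfr1 with 865, Insr with 739 and Igf1r with 399. Egfr had 1 circRNA with 19 reads.

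The output of single genes was concentrated in different ways. The exon 3 circle of Fgfr1 held 76.5% of that gene's junction reads, and the exon 2 circles of Insr and Igf1r held 84.0% and 60.9%. In Fgfr2 the leading circle held 26.8%. The leading circles of Insr and Igf1r come from the matching exon of related receptors: the exons are 552 and 546 bases long and were identical at 68.6% of aligned positions. The 267-base exon that leads in Fgfr1 has a counterpart of 267 bases in Fgfr2 with 53.3% identity, and there the single-exon circle held only 3, 4, 2 and 2 reads in whole cells.

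The 3 fractions shared these circRNAs incompletely. In whole cells 35 were listed, in cytoplasm 44 and in nuclei 5. Listed in both whole cells and cytoplasm were 21, against 14 only in whole cells and 23 only in cytoplasm. Over all circRNAs sharing was incomplete too, with 4803 in both, 5897 only in whole cells and 4845 only in cytoplasm. The circles of these genes took 0.487% to 0.677% of all junction reads in whole cells. In cytoplasm the share was 0.806% and 0.823% in WT and 0.595% and 0.521% in KO, without overlap. In nuclei it was 1.74% and 1.29% in WT and 0.748% and 0.548% in KO, on 24 to 38 reads per library.

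**Figure D4:**
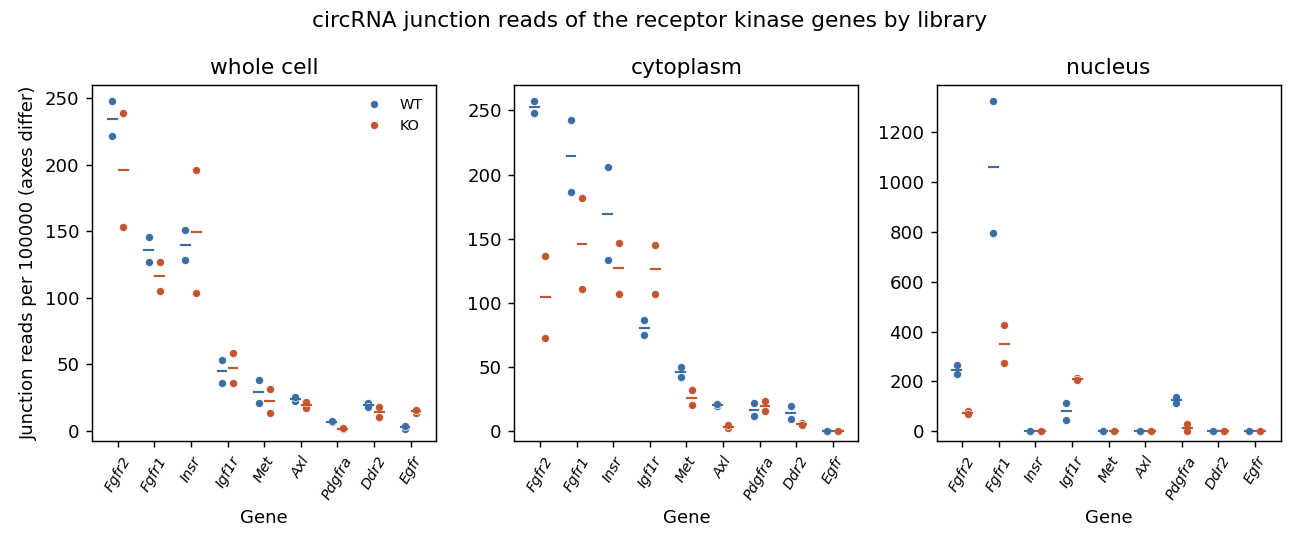
Junction reads per 100000 of the library, summed over the circRNAs of each gene, in each WT and KO library of 3 fractions, with a line at each mean and a separate axis for each fraction. In cytoplasm both KO libraries of Fgfr2 lie below both WT libraries, while those of Igf1r lie above.

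In cytoplasm, 41 circRNAs of these genes had at least 10 reads over the 4 libraries and were tested. Of these 25 passed in edgeR, 9 higher and 16 lower in KO. The background was 53.5% of 8917 circRNAs, with 30% higher and 23.5% lower, and the median log2 fold change was -1.004 for the 41 against -0.25 for all. None of the 41 passed with DESeq2, where 14 had an unadjusted p under 0.05. Leaving out 1 library gave 8 to 23 calls, with 11 without WT replicate 2, 8 without KO replicate 1 and 10 without KO replicate 2.

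Fgfr2 supplied 10 of these calls, 8 lower and 2 higher. The circle chr7:130196178-130242644 had 16 and 15 WT reads against 1 and 1 KO reads (-3.28 ± 0.64, adjusted p = 0.000560), and chr7:130196178-130228792 had 15 and 15 against 1 and 3 (-2.31 ± 0.57, adjusted p = 0.00260). 2 circles that start at exon 2, chr7:130228623-130262066 with 11 and 10 against 0 and 1 and chr7:130218998-130262066 with 7 and 10 against 0 and 2, were lower too (adjusted p = 0.00137 and 0.0114). A circle of 345 spliced bases, chr7:130241200-130242644, named after its values were seen, had 52 and 56 WT reads against 11 and 5 KO reads (log2 fold change -2.17 ± 0.74, adjusted p = 0.0184). The circle chr7:130218998-130242644 had 60 and 37 WT reads against 6 and 6 KO reads (-2.47 ± 0.73, adjusted p = 0.00830). In each of these the KO libraries lay below both WT libraries. The 2 higher circles, also named after their values were seen, had few reads. For chr7:130228623-130242644 these were 3 and 5 in WT against 7 and 9 in KO (1.51 ± 0.51, adjusted p = 0.0233). For chr7:130218998-130241277 they were 3 and 1 against 3 and 7, which overlapped (1.79 ± 0.69, adjusted p = 0.0386). The most-read Fgfr2 circle, whose join is printed above, had 15 and 22 WT reads against 34 and 8 KO reads and did not pass (adjusted p = 0.335). Summed over the gene, Fgfr2 had 200 and 203 WT reads against 69 and 46 KO reads, or 252 ± 6.56 and 104 ± 45.0 per 100000 (SD, n = 2). In whole cells its sums overlapped, with 143 and 122 WT reads against 139 and 77 KO reads. Permuting 2 against 2 libraries cannot give an exact p under 0.333, and the sums were given no other test.

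**Figure D5:**
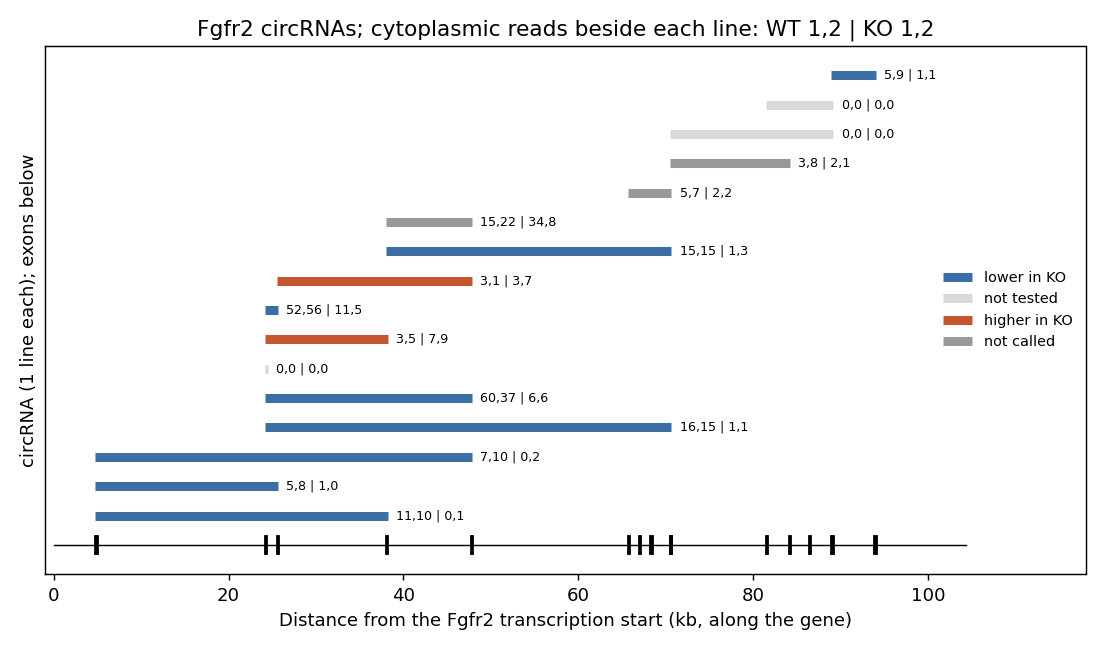
The 16 Fgfr2 circRNAs as lines along the gene, placed by distance in kb from the transcription start, with exons of these circles as black bars, the cytoplasmic reads of 2 WT and 2 KO libraries beside each line, and colour for the edgeR call. Of the 10 called circles 8 were lower in KO, and they span most of the gene.

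Fgfr1 circles moved in both directions in cytoplasm. Its exon 3 circle had 109 and 163 WT reads against 64 and 48 KO reads, with no overlap, but did not pass (-0.70 ± 0.78, adjusted p = 0.449). The circle chr8:25555508-25558243, which starts at the same exon, had 2 and 1 WT reads against 9 and 8 KO reads (2.93 ± 0.62, adjusted p = 0.000931), and chr8:25532250-25558243 had 0 and 3 against 9 and 8 (2.93 ± 0.68, adjusted p = 0.00172). The circle chr8:25557731-25558243 had 11 and 8 WT reads against 2 and 0 KO reads (-2.59 ± 0.77, adjusted p = 0.00850).

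Of 8 genes with cytoplasmic circles, Igf1r and Pdgfra had a higher KO than WT mean per 100000 reads, and only for Igf1r did the libraries not overlap in that direction. Igf1r had 58 and 71 cytoplasmic reads in WT and 54 and 92 in KO, which overlapped as reads and did not overlap per 100000 (80.6 ± 8.57 and 126 ± 27.3). Its 3 called circles were all higher in KO: chr7:68164993-68170048 with 1 and 0 WT reads against 5 and 6 KO reads (3.66 ± 0.86, adjusted p = 0.00181), chr7:68207251-68207873 with 1 and 1 against 7 and 5 (2.95 ± 0.73, adjusted p = 0.00246) and chr7:68169897-68173375 with 2 and 0 against 7 and 5 (2.95 ± 0.79, adjusted p = 0.00434). The exon 2 circle had 46 and 35 WT reads against 22 and 59 KO reads and did not pass (adjusted p = 0.571). Insr exon 2 likewise overlapped, with 130 and 80 WT reads against 37 and 81 KO reads (adjusted p = 0.713). Both called Insr circles were lower in KO: chr8:3192546-3203034 had 13 and 10 WT reads against 2 and 2 KO reads (-1.93 ± 0.58, adjusted p = 0.00980), and chr8:3161339-3185152 had 6 and 6 against 0 and 1 (-2.81 ± 0.91, adjusted p = 0.0170).

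Met, Axl and Ddr2 had few reads, and most of their called cytoplasmic circles were lower in KO. The leading Met circle, exons 5 and 6 at chr6:17526313-17527249, had 16 and 17 WT reads against 2 and 1 KO reads (-2.83 ± 0.60, adjusted p = 0.000954). Of the other called Met circles, chr6:17487797-17492437 was lower, with 4 and 9 against 0 and 1 (adjusted p = 0.0124), and chr6:17526313-17540656 higher, with 2 and 0 against 8 and 4 (adjusted p = 0.00548). The leading Ddr2 circle, chr1:169997931-170006864, had 7 and 13 WT reads against 0 and 1 KO reads (-3.53 ± 0.84, adjusted p = 0.00194). Axl summed to 15 and 17 WT reads against 1 and 3 KO reads, and its called circles were chr7:25760751-25761564 with 10 and 9 against 1 and 1 (adjusted p = 0.00482) and chr7:25763284-25764514 with 5 and 8 against 0 and 2 (adjusted p = 0.0387). One Pdgfra circle, chr5:75187863-75189336, went the other way with 0 and 1 WT reads against 7 and 6 KO reads (3.89 ± 0.83, adjusted p = 0.000931).

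In whole cells 31 circRNAs were tested and none passed in edgeR, where 6 had an unadjusted p under 0.05, and none in DESeq2, where 2 did. The background was 0% of 8903. Scaled by total junction reads 4 of the 31 passed, on a background of 2003 calls, and under the replicate block again 4, on 2054. These were the Egfr circle, higher in KO, 1 circle each of Met and Fgfr2, lower in KO, and 1 circle of Axl. In the main fit the Axl circle chr7:25763284-25764514 was higher in KO (2.23 ± 0.65, adjusted p = 0.0698). Another, chr7:25760751-25766888, was lower (-2.28 ± 0.82, adjusted p = 0.0916). The Egfr circle had 1 and 2 WT reads against 8 and 8 KO reads (log2 fold change 2.36 ± 0.59, adjusted p = 0.0580), opposite in direction to Egfr mRNA by the titles and in the same direction if the mRNA column headings hold, and it was listed in no cytoplasmic or nuclear library. The Met circle chr6:17487797-17492437 had 5 and 7 reads in WT and none in KO, at least 3.85-fold lower when 3 reads over the 2 KO libraries are allowed (adjusted p = 0.0580). The large circles overlapped between genotypes: Fgfr1 exon 3 had 60 and 51 WT reads against 59 and 30 KO reads, and Insr exon 2 had 72 and 77 WT reads against 103 and 41 KO reads.

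In nuclei 4 circRNAs were tested and none passed, with 1 at an unadjusted p under 0.05 in edgeR and 0 in DESeq2. The background was 10.1% of 651, with 1.69% higher and 8.45% lower, and the median log2 fold change was -0.77 for the 4 against 0.44 for all. The 11 higher and 55 lower calls turned to 17 and 3 without KO replicate 1 and to 21 and 8 without KO replicate 2. Fgfr1 exon 3 had 29 and 21 WT reads against 16 and 12 KO reads (-1.80 ± 1.19, adjusted p = 0.325). The leading Fgfr2 circle had 5 and 7 WT reads against 3 and 3 KO reads (-1.90 ± 0.69, adjusted p = 0.0597). The Igf1r exon 2 circle had 0 and 1 WT reads against 7 and 3 KO reads (2.19 ± 1.06, adjusted p = 0.179). The 3 did not overlap between genotypes, Fgfr1 and Fgfr2 lower and Igf1r higher in KO. The share of all nuclear circRNAs without overlap was not counted. Permuting 2 against 2 libraries cannot give an exact p under 0.333 here either.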

How the data were processed

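mRNA-seq files hold gene counts that the authors made with featureCounts (version 2.0.0, paired-end mode, exons summed by gene, not stranded, per the file headers) after alignment to mm10 with HISAT2. CircRNA files hold the authors' deposited junction read counts from find_circ, with 0-based starts, printed here from 1. Filters before deposition are not given in the sources used here. FPKM was computed here from counts and the deposited exon lengths.

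Counts were tested with edgeR (version 4.0.16) in R 4.3.3, quasi-likelihood with TMM scaling, on all genes (filterByExpr) or on all circRNAs with at least 10 reads over the 4 libraries of a fraction, with circRNAs absent from a library taken as 0. DESeq2 (version 1.42.0) was an alternative. Standard errors came from the quasi-likelihood F. In simulated mRNA counts for 14688 genes, 76% of 1.5-fold and 99% of 2-fold changes were recovered. For circRNAs the shares at 4-fold and 8-fold were 87.5% and 66.7% in nucleus (651 circRNAs), 58.1% and 81.1% in cytoplasm (8917) and 65.7% and 81.1% in whole cells (8903). The simulated spread between replicates was fixed and not fitted to these libraries, and only features above a minimum mean count were changed. These shares are therefore not the power of the tests on the real counts. CircRNAs were assigned to a gene by position within its RefSeq span, which left out 24 rows beyond Fgfr2. Junction sequences came from RefSeq's GRCm38.p6 genome. The receptor genes and pathway lists were chosen with earlier results of these data known. All 10 receptors were described. From each other list up to 6 called genes with the smallest adjusted p and a mean of at least 50 counts were named, and per gene the most-read circRNA and up to 5 called ones. Same-numbered replicates did not deviate together (correlations from -0.09 to 0.06), so no block was used. Alternatives were other scalings, no filter, DESeq2, a replicate block and leaving out each library. Leaving out libraries for the sums per gene was added after seeing the data.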

Additional observations from a re-analysis of the deposited data

Results flagged for a closer look

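2 circRNAs were singled out because every KO library lay above every WT library in whole cells and below every WT library in cytoplasm. Of the circRNAs of these genes, 21 were listed in both fractions. How often this pattern occurs over all circRNAs was not counted, and with 2 libraries per group it can arise without a difference. The difference between the fractions was not tested. The Axl circRNA chr7:25763284-25764514 was higher in KO by 7.49 junction reads per 100000 in whole cells (1.77 in WT and 9.26 in KO) and changed by -6.52 in cytoplasm (8.09 in WT and 1.58 in KO). The Fgfr2 circRNA chr7:130228623-130262066 was higher by 4.86 in whole cells (3.55 in WT and 8.40 in KO) and changed by -12.4 in cytoplasm (13.2 in WT and 0.789 in KO). Each value rests on 0 to 11 reads per library.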

How the results depend on the processing

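Of the 10 receptor mRNAs, 4 passed without WT replicate 1 or 2, and leaving out 1 library gave 4 to 8 calls, against 8 with all libraries. In cytoplasm 25 circRNAs of these genes passed, with 0 by DESeq2, 11 with no scaling and 8 to 23 when leaving out 1 library. Of all cytoplasmic circRNAs 4768 passed, with 879 by DESeq2, 2353 with no scaling and 1928 to 3553 when leaving out 1 library. In whole cells none of the 31 passed, with 4 under scaling by total junction reads and 4 under the replicate block. Of all whole-cell circRNAs 0 passed, with 7 by DESeq2, 2003 under scaling by total junction reads, 2054 under the replicate block and 0 to 508 when leaving out 1 library. In nuclei 66 of all circRNAs passed, with 0 by DESeq2, 43 under scaling by total junction reads, 0 with no scaling, 40 with no filter and 3 to 29 when leaving out 1 library, and 1 circRNA of these genes passed under the replicate block against 0 without it. Replicate numbers did not pair the samples, and with the block 8 receptor mRNAs passed, where Pdgfrb lost its call (adjusted p = 0.0604) and Fgfr2 gained one (adjusted p = 0.0441), and 23 cytoplasmic circRNAs passed. The cause was not tested. Nuclear values rest on 2189 to 4383 junction reads per library.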
